A study of Mus musculus with 9 samples.

Results

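The Gadd45 genes encode small acidic proteins of the stress response, and 3 of them, Gadd45a, Gadd45b and Gadd45g, were followed here in mouse kidney together with Gadd45gip1, whose product binds them. These 4 genes, of 55385 gene IDs in the deposited files, were chosen by symbol and with their FPKM values in these libraries already known. Their levels and differences are therefore given as a description, with no test. FPKM counts the fragments of a gene relative to its transcript length and to the library's mapped fragments, a scale on which genes of different length can be set side by side. All 4 genes reached 1 FPKM in each of the 9 libraries, so none of them passed the expression filter through 1 group alone.

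The kidneys came from C57BL/6 mice in 3 groups of 3 libraries. Sham mice received an intraperitoneal injection of saline, and the labels give no day of collection for them. The day 3 and day 7 mice received cisplatin, a platinum chemotherapy drug known for its damage to proximal tubules, by the same route at 20 mg/kg, and were examined 3 and 7 days later. The sources used here do not give the age or sex of the mice. RNA of whole kidney was sequenced in bulk, so fewer cells of a type and less RNA per cell cannot be told apart.

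Gadd45 proteins have no enzyme activity of their own and act by binding others. They bind and switch on MAP3K4, the kinase at the head of a cascade to p38 and JNK, and they bind PCNA, p21 and the cyclin B kinase CDK1, which links them to cell cycle arrest and DNA repair. Gadd45a is a textbook target of p53, Gadd45b answers NF-kB and TGF-beta signals, and Gadd45g answers cytokines and growth signals. Gadd45gip1, also named CRIF1, is a protein of the large mitochondrial ribosomal subunit that is needed to make and insert respiratory chain subunits.

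On GRCm38 with the GENCODE M21 annotation, Gadd45a lies on the minus strand of chromosome 6 (67035096 to 67037457), Gadd45b on the plus strand of chromosome 10 (80930073 to 80932204) and Gadd45g on the plus strand of chromosome 13 (51846678 to 51848468). Each of the 3 has 4 exons in its longest transcript, of 1223, 1284 and 1071 nt. Gadd45gip1 lies on the plus strand of chromosome 8 (84831522 to 84835482) and has 2 exons. How strand was handled in quantification is not stated in the labels, so reads from genes that overlap on opposite strands could not be told apart, and the level of Gadd45gip1 is less certain for it. GC content of the longest transcript was 49.8% for Gadd45a, 56.9% for Gadd45b, 59.9% for Gadd45g and 54.9% for Gadd45gip1, beside a median of 49.8% over the tested genes.

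The promoters of the 3 Gadd45 genes are shown because Gadd45a and Gadd45b were higher at day 3 than in sham while Gadd45g was not. The RefSeq windows (GRCm38.p6, 250 bases before to 50 after the gene's start, read on the gene's own strand) are chr6:67037358-67037657 for Gadd45a, chr10:80929841-80930140 for Gadd45b and chr13:51846425-51846724 for Gadd45g. The RefSeq start differs from the GENCODE start given above in all 3 genes, and motif positions are counted from the RefSeq start. Capitals mark every match, on either strand, to the motifs that were searched.
Gadd45a: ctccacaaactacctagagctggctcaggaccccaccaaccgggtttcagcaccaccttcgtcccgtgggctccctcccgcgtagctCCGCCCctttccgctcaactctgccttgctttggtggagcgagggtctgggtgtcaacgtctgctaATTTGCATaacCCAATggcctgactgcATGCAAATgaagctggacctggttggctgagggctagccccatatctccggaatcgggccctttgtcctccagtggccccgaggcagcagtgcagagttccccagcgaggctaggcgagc
Gadd45b: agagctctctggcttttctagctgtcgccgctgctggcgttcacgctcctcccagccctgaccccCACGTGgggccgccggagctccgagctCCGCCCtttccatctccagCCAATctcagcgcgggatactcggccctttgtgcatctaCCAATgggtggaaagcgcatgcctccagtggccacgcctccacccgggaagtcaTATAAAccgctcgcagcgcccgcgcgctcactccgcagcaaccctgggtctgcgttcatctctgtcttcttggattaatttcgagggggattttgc
Gadd45g: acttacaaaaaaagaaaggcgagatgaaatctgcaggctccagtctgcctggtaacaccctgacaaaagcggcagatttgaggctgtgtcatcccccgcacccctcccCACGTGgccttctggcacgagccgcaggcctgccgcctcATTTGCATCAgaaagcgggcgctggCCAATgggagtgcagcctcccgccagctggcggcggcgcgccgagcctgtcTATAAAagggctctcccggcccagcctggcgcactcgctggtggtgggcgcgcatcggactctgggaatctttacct

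The motifs were the CCAAT box (CCAAT), the GC box (GGGCGG), the TATA box (TATAAA), the octamer (ATGCAAAT), the E-box (CACGTG), the AP-1 site (TGACTCA), the cAMP response element (TGACGTCA) and the core of a C/EBP-ATF site (TGATGCAA). All 3 windows hold a CCAAT box, as do 37.4% of the 32851 windows in the table. The Gadd45a window holds 2 octamers, with first bases at -97 and -70 relative to the RefSeq start, and the Gadd45g window holds 1, a motif found in 1.74% of all windows. The octamer of Gadd45g shares bases with its C/EBP-ATF core, which 0.895% of windows hold. Gadd45b and Gadd45g each hold a TATA box (13.6% of windows) and an E-box (7.15%), and Gadd45a holds neither. Gadd45a and Gadd45b hold a GC box (35.7%) and Gadd45g does not. No window holds an AP-1 site (5.20%) or a cAMP response element (1.79%). These are matches of letters only.

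The tissue was checked first. The 7 tubule markers (Slc34a1, Lrp2, Umod, Slc12a1, Slc12a3, Aqp2 and Atp6v1g3) were above 0 in every library. Sham libraries summed to between 2227 and 2597 FPKM over these markers, day 3 libraries to between 232 and 639, and day 7 libraries to between 1996 and 2049. Single markers did not all follow these sums, in which Umod and Slc34a1 were the largest parts in sham. Lrp2, Slc12a1, Slc12a3 and Atp6v1g3 were each higher in every day 7 library than in any sham library. Slc34a1, Umod and Aqp2 overlapped between day 7 and sham. At day 3, Aqp2 and Atp6v1g3 overlapped sham, with Atp6v1g3 at 34.36, 14.92 and 10.15 FPKM. Sham library 1 stood apart from the other 2 sham libraries in the proximal tubule transporter Slc34a1, at 394 FPKM beside 988 and 1051. The FPKM of all genes summed to 421810 to 509537 per library, and read depth is unknown.

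Gadd45b showed the largest difference of the 4 genes at day 3. Sham libraries 1 to 3 held 3.49, 1.64 and 1.5 FPKM, the day 3 libraries 19.62, 27.42 and 30, and the day 7 libraries 1.82, 2.38 and 1.36. All 3 day 3 libraries lay far above the other 6, and the sham and day 7 values overlapped. The group means were 2.21 ± 1.11 FPKM in sham, 25.7 ± 5.40 at day 3 and 1.85 ± 0.511 at day 7 (SD, n = 3), a ratio of means of 11.6 for day 3 over sham. On the log2(FPKM + 1) scale the difference was 3.09 ± 0.26 (SE from limma), place 107 from the top among the 13718 tested genes and place 273 with a pseudocount of 0.1. From day 3 to day 7 it was -3.22 ± 0.26, and day 7 minus sham was -0.13 ± 0.26. That last value turned to 0.14 without sham library 1 and to 0.42 after removal of a trend with GC content and length.

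Gadd45a, the p53-responsive member, was high in the same libraries with a smaller ratio. Sham libraries held 21.84, 11 and 9.16 FPKM, day 3 libraries 35.96, 44.05 and 36.82, and day 7 libraries 9, 21.54 and 7.41. The day 3 values were all above the other 6, while sham library 1 and day 7 library 2 each stood well above the rest of its group. The means were 14.0 ± 6.85, 38.9 ± 4.44 and 12.7 ± 7.74 FPKM, and the log2 difference between day 3 and sham was 1.50 ± 0.40 (1.85 without sham library 1). Day 7 minus day 3 was -1.68 ± 0.40. Day 7 minus sham was -0.18 ± 0.40, and it was 0.16 without sham library 1, 0.09 without day 7 library 3 and -0.62 without day 7 library 2.

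Gadd45g, the cytokine-responsive member, had another course and was lowest at day 7. Sham values were 28.71, 51.44 and 108.5 FPKM, day 3 values 31.62, 38.36 and 26.27, and day 7 values 8.86, 12.62 and 8.71. Every day 7 value lay below every sham and day 3 value, and the sham and day 3 values overlapped. The share of FPKM from mitochondrial genes also separated day 7 from sham, at 31.7% to 32.6% against 25.6% to 27.3% (27.1% to 31.8% at day 3), and its part in the day 7 levels of Gadd45g and Gadd45gip1 was not tested. The means were 62.9 ± 41.1, 32.1 ± 6.06 and 10.1 ± 2.22 FPKM. Day 7 minus sham was -2.34 ± 0.41 on the log2 scale, the fifth lowest of the 13718 tested genes, and -1.85 without sham library 3, which held the highest value. Its place from the bottom was 20 without sham library 3, 11 without sham library 2, 2 without sham library 1, 8 without day 7 library 3 and 15 with a pseudocount of 0.1. After removal of the trend with GC content and length it was -1.71, place 12 from the bottom. Day 3 minus sham was -0.76 ± 0.41, and it depended on the sham libraries, at -0.27 without library 3 and -1.21 without library 1. Day 7 minus day 3 was -1.58 ± 0.41.

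Gadd45gip1, the mitochondrial ribosome component, was lower at both times. Sham values were 22.25, 23.72 and 18.89 FPKM, day 3 values 13.88, 13.1 and 11.04, and day 7 values 10.98, 11.29 and 9.68. The 6 cisplatin libraries lay below the 3 sham libraries, and the day 3 and day 7 values overlapped. The means were 21.6 ± 2.48, 12.7 ± 1.47 and 10.7 ± 0.854 FPKM, and the log2 difference from sham was -0.73 ± 0.13 at day 3 and -0.95 ± 0.13 at day 7. Day 7 minus day 3 was -0.23 ± 0.13. Without the trend with GC content and length the differences from sham were -0.46 and -0.64.

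**Figure D1:**
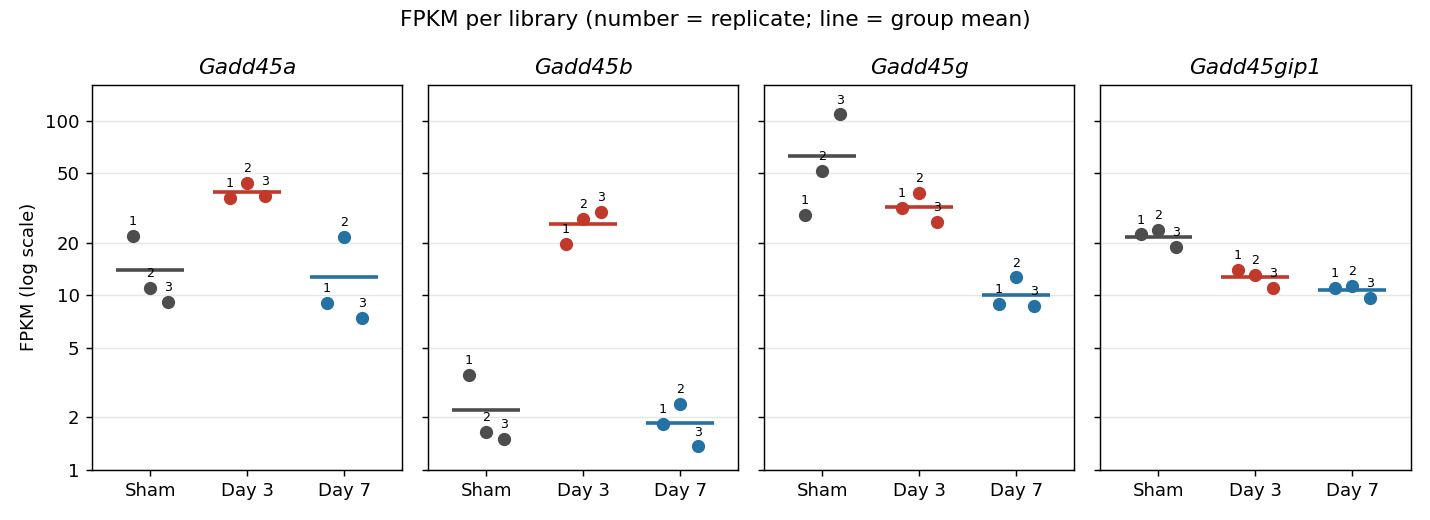
FPKM of the 4 genes in each library on a log axis, with points numbered by replicate and lines at the group means. Gadd45a and Gadd45b stand highest in the 3 day 3 libraries, Gadd45g is lowest in the 3 day 7 libraries, and Gadd45gip1 is lower in all 6 cisplatin libraries than in sham.

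Across the 4 genes, the groups did not overlap for 3 between day 3 and sham, for 2 between day 7 and sham and for 3 between day 7 and day 3. The same held for 64.0%, 48.7% and 64.4% of all 13718 tested genes. Since the genes were chosen on these contrasts, nothing is read from those counts. The median log2 difference of all tested genes was 0.25 at day 3 against sham, 0.06 at day 7 against sham and -0.16 at day 7 against day 3. With median-of-ratios scaling these medians were 0.03, -0.02 and -0.02. Relative to the median of all genes, Gadd45b stood at 2.84 and Gadd45a at 1.25 at day 3, and Gadd45g at -2.40 and Gadd45gip1 at -1.01 at day 7.

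**Figure D2:**
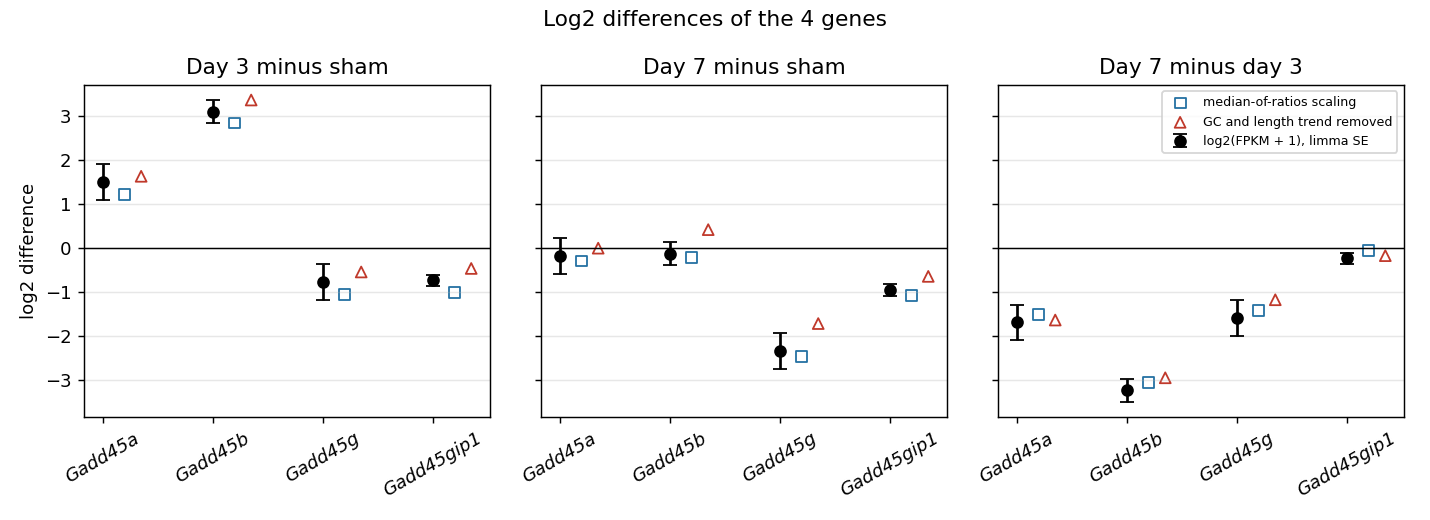
Log2 differences of the 4 genes in the 3 comparisons, with black points for log2(FPKM + 1) and its limma standard error, blue squares for median-of-ratios scaling and red triangles for values after removal of a trend with GC content and length. The signs are alike across the 3 settings at day 3, while at day 7 against sham Gadd45b goes from -0.13 to 0.42.

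The share of each gene in the family differed among libraries. Gadd45g was the most abundant of the 3 Gadd45 genes in all 3 sham libraries, with 53.1%, 80.3% and 91.1% of their summed FPKM. At day 3 Gadd45a was the most abundant in every library, at 41.2%, 40.1% and 39.6%. Its sham shares were 40.4%, 17.2% and 7.7%, so sham library 1 lay within the day 3 range. At day 3 Gadd45b held 22.5%, 25.0% and 32.2%, beside 6.5%, 2.6% and 1.3% in sham. At day 7 Gadd45a and Gadd45g lay close together in libraries 1 and 3, and Gadd45a led in library 2 with 58.9%. Gadd45b was the least abundant in 8 of 9 libraries, the exception being day 3 library 3, where Gadd45g was. Summed over the 3 genes, sham libraries held 54.04, 64.08 and 119.16 FPKM, day 3 libraries 87.2, 109.83 and 93.09, and day 7 libraries 19.68, 36.54 and 17.48. The day 7 sums were below all others, and the sham and day 3 sums overlapped.

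**Figure D3:**
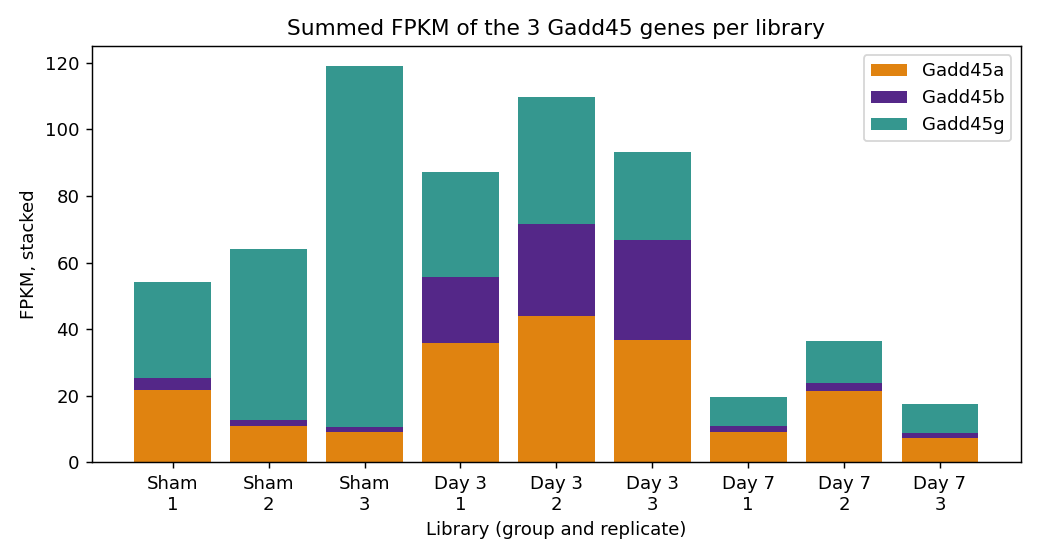
Stacked FPKM of Gadd45a, Gadd45b and Gadd45g in each of the 9 libraries, from 0. The sham bars are mostly Gadd45g, the day 3 bars hold a visible part of each gene, and the day 7 bars are the shortest, at 17.48 to 36.54 FPKM.

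Sham library 1 differed from the other sham libraries in each of the 3 Gadd45 genes, with the highest Gadd45a and Gadd45b and the lowest Gadd45g. It also had the lowest Slc34a1 of the 3. Day 7 library 2 had the highest Gadd45a, Gadd45b and Gadd45g of its group, and the highest values of that group for the neutrophil gene S100a9 (15.2 FPKM, beside 2.98 and 7.17) and the myeloid gene Lyz2 (47.1, beside 15.92 and 15.01).

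Markers of other cells did not all move alike at day 3. Neutrophil and macrophage sums were higher than in sham, as were Gadd45a and Gadd45b, the T cell sum was lower, and the fat and adrenal sums overlapped. Over 8 neutrophil markers the sum ranged from 2.74 to 14.53 FPKM among sham libraries, from 29.15 to 104.5 among day 3 libraries and from 4.56 to 22.55 among day 7 libraries, with Mpo and Elane listed at 0 in 8 of 9 libraries. For 7 macrophage markers it was 76.01 to 85.78, 129 to 195 and 41.01 to 115, where Cd68 alone gave 86.69 to 113.57 FPKM at day 3 while Csf1r, C1qa and C1qb were each lower in every day 3 library than in any sham library. For 6 T cell markers it was 1.05 to 2.36, 0.03 to 0.12 and 0.74 to 2.15. For 6 fat and adrenal markers it was 1.87 to 6.03, 1.96 to 13.51 and 0.75 to 5.05, with day 3 library 1 highest (Cfd at 9.88 FPKM) and Cyp11b1 listed at 0 in all 9 libraries. Their part in the results was not tested.

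Likeness was measured as the Pearson correlation of log2(FPKM + 1) over the 9 libraries, which share their groups, so a high value mostly reflects the same order of the 3 groups. Gadd45a and Gadd45b were alike (r = 0.914), Gadd45g and Gadd45gip1 less so (r = 0.728), and Gadd45g had r = 0.157 with Gadd45a and 0.161 with Gadd45b. Of all tested genes, those most like Gadd45a were Jak3, Arsa and Fxyd5 (r = 0.986, 0.982 and 0.973). For Gadd45b they were Rpl4, Impdh2 and Rin1 (0.998, 0.997 and 0.997). Rpl4 has pseudogene copies that can share its reads. For Gadd45g they were the pseudogene Rps12-ps1, Snrpa and Atg13 (0.958, 0.949 and 0.949). For Gadd45gip1 they were Cuedc2, Shb and Zfand2b (0.988, 0.987 and 0.987).

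The nearest tested genes on either side of Gadd45a and of Gadd45b were not called higher at day 3. Gng12, a G protein subunit gene 13746 bases from Gadd45a, was not called at day 3 (log2 fold change 0.13 ± 0.17, limma adjusted p = 0.534). The predicted gene Gm8566, 168162 bases away on the other side of Gadd45a, fell by 1.73 on the log2 scale (adjusted p = 5.92e-06). Lmnb2, which encodes lamin B2, lies 11828 bases from Gadd45b and was not called (-0.05 ± 0.19, adjusted p = 0.836). The zinc transporter gene Slc39a3, 96334 bases from Gadd45b, fell by 0.75 (adjusted p = 0.00194). The nearest tested genes to Gadd45g lie further off, Sema4d at 52931 bases and Auh at 986651. Sema4d was not called at day 7 against sham (-0.11 ± 0.25, adjusted p = 0.770), nor was Auh (-0.16 ± 0.11, adjusted p = 0.306). Dand5, 8699 bases from Gadd45gip1, was lower at both times (-0.68 ± 0.15 and -0.75 ± 0.15, adjusted p = 0.00363 and 0.00659).

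Genes that work with the Gadd45 proteins were taken from 5 lists of 99 distinct genes, written from general knowledge of their partners and regulators. Earlier results of these data were known when the lists were chosen, so the counts below are a description and not independent support. Of the 99 genes, 91 reached 1 FPKM in at least 3 libraries and were tested. Of the genes named below, Cdkn1a, Cebpb, Mrpl47 and Oxa1l overlap a tested gene on the opposite strand, and Npm1 has pseudogene copies, so their values are less certain. So are those of Mapk8, which overlaps the processed pseudogene Gm49037 on its own strand. Gm49037 reached 5.84 FPKM, and Mapk8 at most 2.48. The 8 list genes not tested were Mapk10, Cdk1, Ccnb1, Tet1, Esr1, Rxrg, Brca1 and Lck. Of all tested genes, limma called 39.3% higher and 20.6% lower at day 3 against sham, 19.3% higher and 10.4% lower at day 7 against sham, and 21.7% higher and 33.7% lower at day 7 against day 3. The higher genes made up 65.6%, 64.9% and 39.2% of those calls, and with quantile normalization 51.2%, 52.7% and 49.8%. Median-of-ratios scaling gave 4083 higher and 3951 lower, 2245 and 2227, and 3742 and 3744.

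In the p38 and JNK kinase cascade, 8 of 14 tested genes (57.1%) rose and 2 fell at day 3 (median 0.50, beside 0.25 for all genes). For Map3k4, the kinase that Gadd45 proteins bind, sham libraries held 3.43, 4.86 and 4.62 FPKM, day 3 libraries 3.17, 1.86 and 2.25, and day 7 libraries 4.58, 4.87 and 4.99. Its 3 day 3 values were below all others, and it fell by 0.64 at day 3 (SE 0.16, adjusted p = 0.00900) and was higher again at day 7 than at day 3 (0.78 ± 0.16, adjusted p = 0.00361). The p38 isoform genes Mapk11 and Mapk13 rose from 1.54 ± 0.683 to 11.3 ± 2.30 FPKM and from 3.92 ± 0.486 to 19.8 ± 4.60 FPKM (log2 fold changes 2.29 ± 0.22 and 2.06 ± 0.19, adjusted p = 4.72e-05 and 3.84e-05). The p38 substrate kinase gene Mapkapk3 rose by 1.24 ± 0.15 and the JNK activator gene Map2k4 by 0.90 ± 0.15. Mapk14, the p38 alpha gene, named here after its values were seen, was not called (-0.57 ± 0.46, adjusted p = 0.306). From day 3 to day 7, 3 of the 14 rose and 7 fell, led by Mapk13 (-2.65 ± 0.19), Mapk11 (-2.53 ± 0.22), Mapkapk3 (-1.51 ± 0.15) and Map2k3 (-1.15 ± 0.29).

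Of 17 tested partners in the cell cycle, repair and DNA demethylation, 7 rose and 1 fell at day 3 (median 0.48). The share that rose, 41.2%, is near the 39.3% of all tested genes, so the count is not a result about this list. Cdkn1a, which encodes the Gadd45-binding inhibitor p21, rose by 5.24 ± 0.40 on the log2 scale and fell by 5.47 from day 3 to day 7. For Pcna, the replication clamp, sham libraries held 11.38, 13.69 and 8.23 FPKM, day 3 libraries 31.52, 41.47 and 43.69, and day 7 libraries 13.88, 17.84 and 16.2. It rose by 1.73 ± 0.20 at day 3 (adjusted p = 0.000111). For Ercc5, which encodes the repair nuclease XPG, the values were 3.02, 1.92 and 2.65 FPKM, then 15.17, 15.18 and 16.29, then 2.77, 4.02 and 2.92 (sham, day 3, day 7). In both genes the day 3 libraries were above the other 6. Npm1, the nucleophosmin gene, rose by 1.36 ± 0.15. The mitotic partners were low: Cdk1 had 0.11, 0.55 and 0.15 FPKM in the sham libraries, 0.55, 0.37 and 0.35 in the day 3 ones, and 0.21, 1.29 and 0.25 in the day 7 ones. Ccnb1 had 0.06, 0.23 and 0.04, then 0.24, 0.31 and 0.5, then 0.14, 1.2 and 0.29 FPKM. Day 7 library 2 was the highest of the 9 in both. From day 3 to day 7, 8 of the 17 fell and 1 rose. The share called, 52.9%, is near the 55.4% of all tested genes, so the number of calls is not a result about this list. The share that fell was 47.1%, beside 33.7% of all tested genes.

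Of 23 tested regulators upstream of the Gadd45 genes, 15 (65.2%) rose and 2 fell at day 3 (median 0.72). Egr1, an immediate early factor that binds the Gadd45a promoter, rose from 3.23 ± 1.44 to 48.2 ± 6.81 FPKM (3.59 ± 0.29, adjusted p = 2.33e-05) and Atf3, a stress factor, by 3.97 ± 0.29. Nfyb, a subunit of the CCAAT-binding factor, rose from 2.11 ± 0.388 to 8.27 ± 0.606 FPKM (1.58 ± 0.18, adjusted p = 0.000104). Of the other subunits, named here after their values were seen, Nfya rose by 0.75 ± 0.14 and Nfyc, the most abundant of the 3 in sham, fell from 23.2 ± 4.06 to 8.07 ± 1.89 FPKM (-1.42 ± 0.17, adjusted p = 0.000174). Myc rose by 1.46 ± 0.27. From day 3 to day 7, 14 of the 23 fell and 2 rose, with Egr1 at -4.06 ± 0.29, Atf3 at -4.08 ± 0.29, Myc at -2.46 ± 0.27 and Cebpb at -1.98 ± 0.19.

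The list of other growth arrest and DNA damage genes moved furthest. At day 3, 18 of 20 rose and 0 fell in limma (1 lower at an unadjusted p under 0.05), with a median of 2.73. Phlda3, a p53 target that restrains AKT, rose from 2.86 ± 1.03 to 63.8 ± 1.69 FPKM (4.10 ± 0.32, adjusted p = 2.07e-05). Trp53inp1, Btg2 and Pmaip1, also p53 targets, rose by 4.75 ± 0.20, 4.28 ± 0.25 and 4.17 ± 0.40. From day 3 to day 7, 18 of 20 fell and 0 rose (0 higher also at an unadjusted p under 0.05, median -2.27). Plk3, a stress-responsive polo kinase gene, fell by 3.98 (SE 0.17) and Ppp1r15a, known as Gadd34, by 3.65 (SE 0.29).

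Partners of Gadd45gip1 and genes of mitochondrial translation went both ways at day 3, with 5 of 17 higher and 5 lower (median -0.29). That is 29.4% each way, beside 39.3% higher and 20.6% lower of all tested genes. The share called, 58.8%, is near the 59.9% of all tested genes, so the number of calls is not a result about this list. Tufm, the mitochondrial elongation factor gene, fell from 56.7 ± 12.6 to 21.8 ± 0.471 FPKM (-1.31 ± 0.16, adjusted p = 0.000167) and Mrpl12, a mitochondrial ribosomal protein gene, by 1.12 (SE 0.18). The largest rises were of genes outside translation, the nuclear receptor gene Nr4a1 (2.59 ± 0.28) and the NRF2 gene Nfe2l2 (1.52 ± 0.15), whose products bind CRIF1. From day 3 to day 7, Tufm and Mrpl12 were higher again (1.10 ± 0.16 and 0.85 ± 0.18), and Nr4a1 (-2.84 ± 0.28) and Nfe2l2 (-1.28 ± 0.15) were lower. In all, 2 of the 17 rose and 5 fell from day 3 to day 7, 41.2% called beside 55.4% of all tested genes. Gadd45gip1 itself was at -0.23 ± 0.13 over the same interval.

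**Figure D4:**
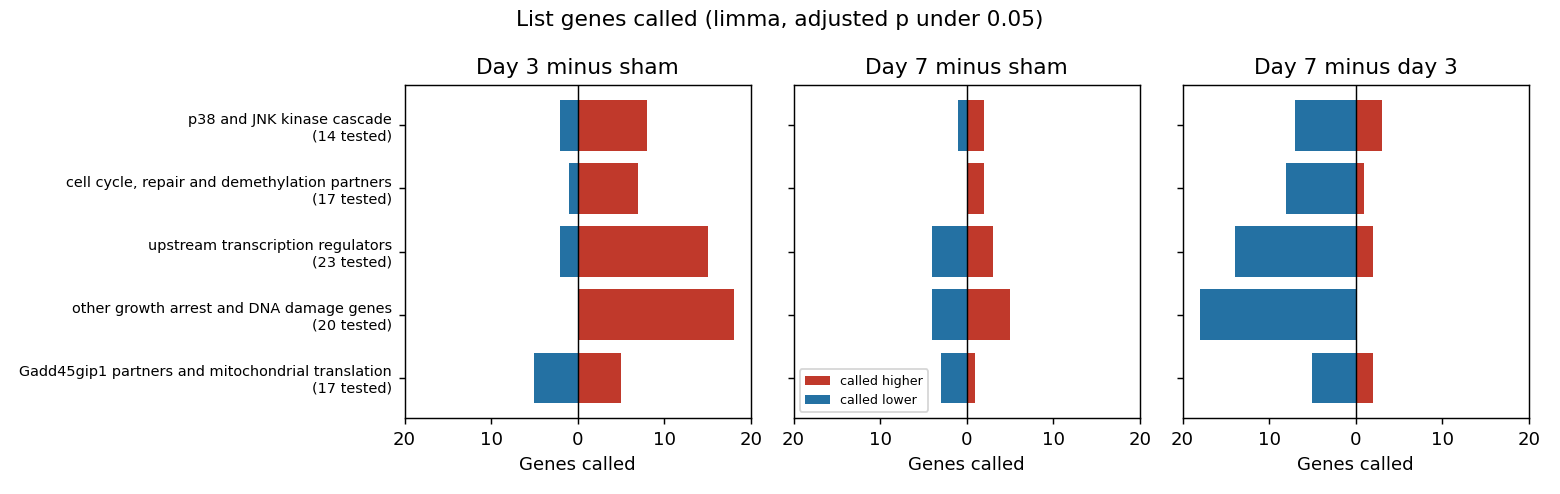
Number of genes called higher (red, to the right) and lower (blue, to the left) in each of the 5 lists, for the 3 comparisons. The day 3 bars of 4 lists point mostly to higher levels, the Gadd45gip1 list has 5 each way, and day 7 against sham has the fewest calls.

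At day 7 against sham, 25 of the 91 list genes were called. That is 27.5%, near the 29.7% of all tested genes, so the number of calls does not set the lists apart, and the genes below are given for their own values. Among the growth arrest genes 5 were higher and 4 lower (median -0.03, beside 0.06 for all genes), with Ccng1, which encodes cyclin G1, going from 24.1 ± 1.76 to 74.8 ± 30.5 FPKM (1.53 ± 0.23, adjusted p = 0.00282). Trp53inp1 was still higher (1.38 ± 0.20). The stress-induced sestrin gene Sesn2 went from 23.1 ± 3.01 to 9.76 ± 2.02 FPKM (-1.17 ± 0.18, adjusted p = 0.00293), and Bax, a pore-forming protein of apoptosis, from 20.0 ± 2.08 to 10.9 ± 2.40 FPKM (-0.83 ± 0.15). Of the regulators 3 were higher and 4 lower, among them Trp53, the p53 gene, with 5.53 ± 0.411 FPKM after 10.2 ± 2.72 in sham (-0.76 ± 0.17, adjusted p = 0.0131).

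In the kinase cascade 2 were higher and 1 lower at day 7 against sham, with the JNK2 gene Mapk9 at 0.66 ± 0.11. Of the cell cycle and repair partners 2 were higher and 0 lower (1 lower at an unadjusted p under 0.05), with the demethylation glycosylase gene Tdg at 0.58 ± 0.13. In the Gadd45gip1 list 1 was higher and 3 lower, with Mrpl23 at -0.73 ± 0.15 and Oxa1l, the inner membrane insertase gene, at -0.60 ± 0.13 (adjusted p = 0.00868 and 0.0103). Of the direct partners, Map3k4, Pcna, Cdkn1a and Ercc5 were not called (0.14 ± 0.16, 0.51 ± 0.20, -0.23 ± 0.40 and 0.26 ± 0.16).

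Most of these day 7 calls depended on the processing. After removal of a trend with GC content and length, 2 of the 91 list genes were called, Ccng1 and Sesn2. The number called was 12 without sham library 2, 13 without day 7 library 1, 15 without day 7 library 2 and 12 without day 7 library 3. Of 17 named genes called at day 7, 8 (Mapk13, Mapk8, Npm1, Myc, Cebpb, Atf2, Mrpl47 and Keap1) lost the call when 1 library was left out, with adjusted p up to 0.136. No single library was needed for the calls of the named genes in the other 2 comparisons.

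**Figure D5:**
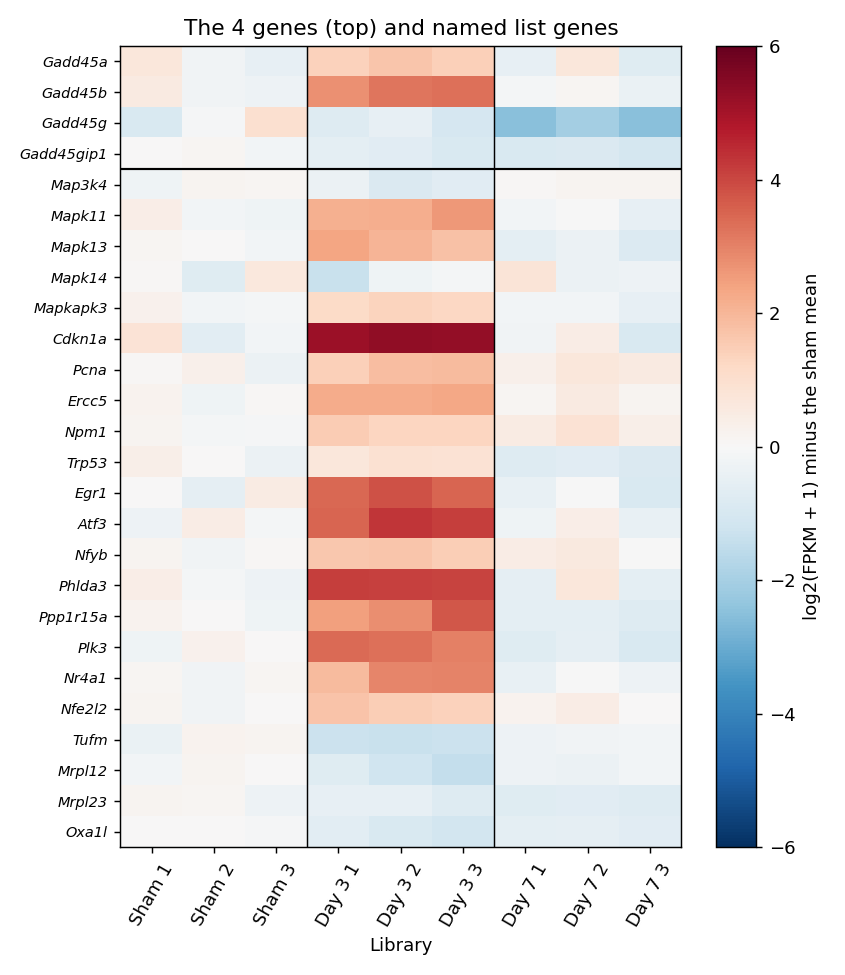
Log2(FPKM + 1) minus the sham mean in each library for the 4 genes (above the line) and for named list genes, red for higher and blue for lower. Cdkn1a, Egr1, Atf3 and Phlda3 are among the deepest red in the 3 day 3 libraries, and Gadd45g is the deepest blue in the 3 day 7 libraries.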

How the data were processed

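RNA of mouse kidney was sequenced in 9 libraries. The authors' deposited FPKM per gene, given to 2 decimals, were used as they stand. HISAT, StringTie, FastQC 0.10.1 and GRCm38 are named in the submitters' processing notes. Settings, annotation release and strand handling: not given in the sources used here. FPKM hold no counts, and very short genes have values too small to be whole fragments, so depth is unknown.

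Symbols and positions came from GENCODE M21 (55144 IDs matched) and promoters from RefSeq, with 3 of the 4 members found. The 13718 genes that reached 1 FPKM in 3 or more libraries entered 1 limma fit (3.58.1, R 4.3.3, trended eBayes) of log2(FPKM + 1) on the 3 groups, which understates changes of low genes. Tests were two-sided, Benjamini-Hochberg adjusted over all tested genes, threshold 0.05. The script was tested on simulated data. The labels do not say that each library is a separate animal, so p-values measure only the spread between libraries, which may be technical. Errors are SD of FPKM or limma SE of log2 values.

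Members and lists were chosen with earlier results of these data known. Named genes were the members, up to 4 called genes per list and comparison whose mean reached 1 FPKM in a group, 6 direct Gadd45 partners, the 3 genes most like each member and the nearest tested neighbours, and some marker and neighbour values are not reported here. Ddit3 has a pair of IDs, of which the tested one was used. Alternatives were a pseudocount of 0.1, no filter or 5 FPKM, median-of-ratios scaling, quantile normalization, 6 libraries, robust variance, a replicate block and leaving out each library. Removal of a spline (5 degrees of freedom) on GC content and on length was added after the data were seen.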

Additional observations from a re-analysis of the deposited data

Results flagged for a closer look

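In 9 of the 91 tested list genes the responses to cisplatin at the 2 times went in opposite directions, each called against sham in limma. The share of all tested genes with such opposite calls was not worked out, so nothing is read from the count of 9. Opposite calls fix the direction of the day 7 minus day 3 difference, so it is given as a description, with no p. It was -2.65 on the log2 scale for Mapk13, -1.59 for Trp53, -1.98 for Cebpb, -2.46 for Myc, -1.95 for Rela, -2.08 for Ddit3, -2.06 for Sesn2, -3.98 for Plk3 and -2.09 for Bax. All 9 were higher than sham at day 3 and lower at day 7, and Rela and Ddit3 were named for this pattern after their values were seen. After removal of a trend with GC content and length, Sesn2 was still called below sham at day 7 (-0.78, adjusted p = 0.0430) and the other 8 were not (adjusted p from 0.0798 to 0.652). Of these 8, Ddit3 kept its log2 fold change (-0.58 before, -0.60 after), Trp53 went from -0.76 to -0.58 and Myc from -1.0 to -0.76, while the other 5 went from between -0.83 and -0.58 to between -0.29 and -0.14. With median-of-ratios scaling all 9 were called below sham at day 7. In all, 60 of the 91 tested list genes (65.9%) were called between day 7 and day 3, beside 55.4% of all tested genes.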

How the results depend on the processing

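Gadd45b was 3.56 at day 3 and -3.73 from day 3 to day 7 with a pseudocount of 0.1. With median-of-ratios scaling Gadd45gip1 was -1.01 at day 3 and -0.06 from day 3 to day 7. Without the GC content and length trend Gadd45b turned to 0.42 and Gadd45g was -1.71 at day 7, and Gadd45gip1 was -0.46 and -0.64 at day 3 and day 7. Leaving out a library also moved some values. Against sham, Gadd45g was then -1.21 to -0.27 at day 3 and -2.79 to -1.85 at day 7. At day 7 against sham Gadd45a was -0.62 to 0.16 and Gadd45b -0.29 to 0.14, so both changed sign. From day 3 to day 7 Gadd45a was -2.12 to -1.41. Of all genes, 8214 were called at day 3 against sham (5104 with a filter at 5 FPKM, which tests fewer genes), 4075 at day 7 against sham (2470 to 4719 leaving out a library, 856 without the GC content and length trend) and 7603 at day 7 against day 3 (4973 at 5 FPKM). Of list genes, 25 were called at day 7 against sham, 13 with no filter, 12 to 28 leaving out a library and 2 without the GC content and length trend. By list at day 7 against sham, the kinase cascade went from 3 to 1 with no filter or at 5 FPKM, the partners from 2 to 1 at 5 FPKM, the regulators from 7 to 2 with no filter and 4 with quantile normalization, and the growth arrest genes from 9 to 5 with no filter. Leaving out a library gave 1 to 4, 1 to 2, 2 to 7, 4 to 9 and, for the Gadd45gip1 list (4), 2 to 6. Without the GC content and length trend the 5 counts were 0, 0, 0, 2 and 0 (3, 2, 4, 5 and 4 at an unadjusted p under 0.05 in limma). At day 3 the kinase cascade went from 10 to 6 at 5 FPKM. Of 1126 values for named list genes, 1061 kept direction and call, 61 lost the call and 4 changed sign, all at day 7 against sham: Mapk8 was -0.09 without the GC content and length trend, and Cdkn1a was -0.56 to 0.18 leaving out a library, with 0.18 without sham library 1, 0.11 without day 7 library 3 and 0.10 without the GC content and length trend. With group means subtracted, same-numbered libraries of different groups correlated at -0.054 to 0.238 and differently numbered ones at -0.28 to 0.115. The highest value was between sham library 3 and day 7 library 3. These ranges overlap, and whether the numbers pair libraries was not tested. With the replicate number as a block 8212 genes were called at day 3 against sham, 3885 at day 7 against sham and 7540 at day 7 against day 3. The cause of these changes was not tested.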

Other observations

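Of the 4 tested genes with a lower log2 fold change than Gadd45g at day 7 against sham, Angptl4 was named after its values were seen. Angptl4, a fasting-responsive inhibitor of lipoprotein lipase, had 57.57, 7.92 and 18.29 FPKM in the sham libraries, 62.76, 30.8 and 25.55 in the day 3 ones and 3.57, 3.58 and 1.74 in the day 7 ones (-2.49 ± 0.62, limma adjusted p = 0.0183, and 0.0565 without the GC content and length trend). In Angptl4 sham library 1 held the highest sham value, while in Gadd45g it held the lowest. The antisense-strand transcript E230016M11Rik, which overlaps Gadd45a, did not exceed 0.42 FPKM in any library.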
